A study of Mus musculus with 5 samples.

Results

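The chaperone genes of sorted mouse bone marrow progenitors were the 81 of 27998 genes whose symbols carry a heat shock protein, chaperonin or J-domain stem. The stems were Hspa, Hspb, Hspd, Hspe, Hsph, Hsp90, Cct, Dnaja, Dnajb and Dnajc followed by a digit. Hspbap1, a partner of small heat shock proteins, enters by its spelling. By family they were 3 HSP90 genes, 14 of the HSP70 and HSP110 family, 2 mitochondrial chaperonin genes, 8 named as subunits of the cytosolic chaperonin TRiC, 9 filed with the small heat shock proteins and 45 J-domain genes (4 of class A, 13 of class B and 28 of class C).

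Chaperones bind unfolded or partly folded proteins and hold, fold or hand them on at the cost of ATP. HSP70 proteins work in cycles driven by J-domain co-chaperones and by exchange factors such as the HSP110 proteins, while HSP90 finishes signalling proteins and TRiC encloses actin and tubulin. The endoplasmic reticulum and the mitochondrion hold their own sets, induced by the unfolded protein response or needed for import, and the cytosolic set is partly under heat shock factor. Developing blood cells load these systems differently, with globin and heme proteins in the erythroid line and granule proteins made in the endoplasmic reticulum in the granulocyte line.

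The libraries were droplet single-cell 3' RNA counts from untreated wild-type C57BL/6 mice, 1 library for each of 4 sort gates, all lineage-negative and KIT-positive. LSK cells carried SCA1. The gates without SCA1 were named from CD34 and CD16/32. CMP, the common myeloid progenitors, carried CD34 alone, GMP (granulocyte and monocyte progenitors) carried CD34 with CD16/32, and MEP (megakaryocyte and erythroid progenitors) carried neither. The labels list 5 samples, but both CMP samples held the same matrix and were counted as 1, and the number of animals behind a library is not given in the sources used here. With 1 library per gate there is no replicate check, so no p-value is given, and every interval is an exact 95% interval that covers counting error only.

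The kept cells numbered 3713 to 10870 per library and held 26919088 to 80273121 molecules (UMIs), with a median cell of 5991.5 (LSK), 6904 (CMP), 9100 (GMP) and 12578 UMIs (MEP). Pairs of libraries shared 36 to 130 cell barcodes, against 31.6 to 118 for independent draws from the barcode list. Levels are sums over a library's cells as CPM, a gene's UMIs per 1000000 UMIs of that library, and lists of 4 levels run from LSK over CMP and GMP to MEP. Defining transcripts followed the gates, with Ly6a (SCA1) at 78.2 CPM in LSK and at most 1.49 elsewhere, Elane at 12374 CPM in GMP and Car1 at 4513 CPM in MEP. Immediate early genes such as Fos, which respond to stimulation within minutes, summed to 6933 CPM for LSK, 4153 for CMP, 1241 for GMP and 689 for MEP.

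Together the chaperone genes took 1.22% of the UMIs for LSK, 1.39% for CMP, 1.35% for GMP and 1.94% for MEP. MEP stood highest, and LSK lowest. Of the 81 genes, 34 reached 50 CPM in at least 1 library, 20 peaked between 10 and 50 CPM and 27 stayed under 10 CPM. By CPM, 22 of the 34 were highest in MEP, 5 in GMP, 4 in LSK and 3 in CMP, and 18 were lowest in LSK. Scaling by median-of-ratios or TMM factors, in place of the total, gave 25 highest in MEP and 30 lowest in LSK, since both lowered LSK. Those factors moved every log2 ratio by -0.38 and -0.31 for LSK over CMP, -0.54 and -0.45 for LSK over GMP, -0.52 and -0.44 for LSK over MEP, -0.16 and -0.13 for CMP over GMP, -0.14 and -0.12 for CMP over MEP, and 0.02 and 0.01 for GMP over MEP.

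A gene was called higher where it had 50 CPM or more in the higher library and a ratio of 2 or more. From LSK to MEP, 6 of 34 chaperone genes tested were higher in MEP and 1 in LSK, where 13.5% and 16.4% of all genes tested passed the same rule. From CMP to MEP, 6 of 33 were higher in MEP and 0 in CMP (10.5% and 11.3% of all genes). From GMP to MEP, 6 of 32 were higher in MEP and 3 in GMP (12.1% and 12.2%). By CPM, then, 17.6 to 18.8% of the chaperone genes were called higher in MEP, not far above the share of all genes. The LSK count depends on the scaling, with 21 of 34 higher in MEP and 0 in LSK under median-of-ratios and 18 and 0 under TMM. These factors move the log2 ratio of LSK over MEP by -0.52 and -0.44 for every gene alike. The share of all genes passing was not computed under them, so these 2 counts cannot be set against the 13.5% found by CPM.

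Between LSK and GMP, 4 of 30 chaperone genes were higher in GMP and 1 in LSK (7.49% and 13.3% of all genes). Between LSK and CMP, 1 of 30 was higher in CMP and 0 in LSK (2.72% and 6.12%), and between CMP and GMP 1 of 29 was higher in CMP and 0 in GMP (4.03% and 2.92%). These contrasts share libraries, so their counts are not independent of each other. The median log2 ratio of the chaperone genes minus that of all genes tested was -0.40 for LSK over MEP, -0.23 for CMP over MEP and -0.29 for GMP over MEP. It was -0.20 for LSK over CMP, -0.14 for LSK over GMP and 0.07 for CMP over GMP.

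With the minimum set at 10 CPM, more chaperone genes were tested, and the counts lower in MEP grew. From LSK to MEP, 8 of 52 were higher in MEP and 4 in LSK (9.16% and 24.9% of all genes), from CMP to MEP 8 of 51 and 2 (10.9% and 14.6%), and from GMP to MEP 8 of 52 in each direction (12.8% in MEP and 13.8% in GMP). From LSK to GMP, 6 of 53 were higher in GMP and 4 in LSK (5.13% and 21%), from LSK to CMP 1 of 51 in CMP and 2 in LSK (2.05% and 12.3%), and from CMP to GMP 1 of 52 in CMP and 2 in GMP (5.32% and 2.99%).

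**Figure D1:**
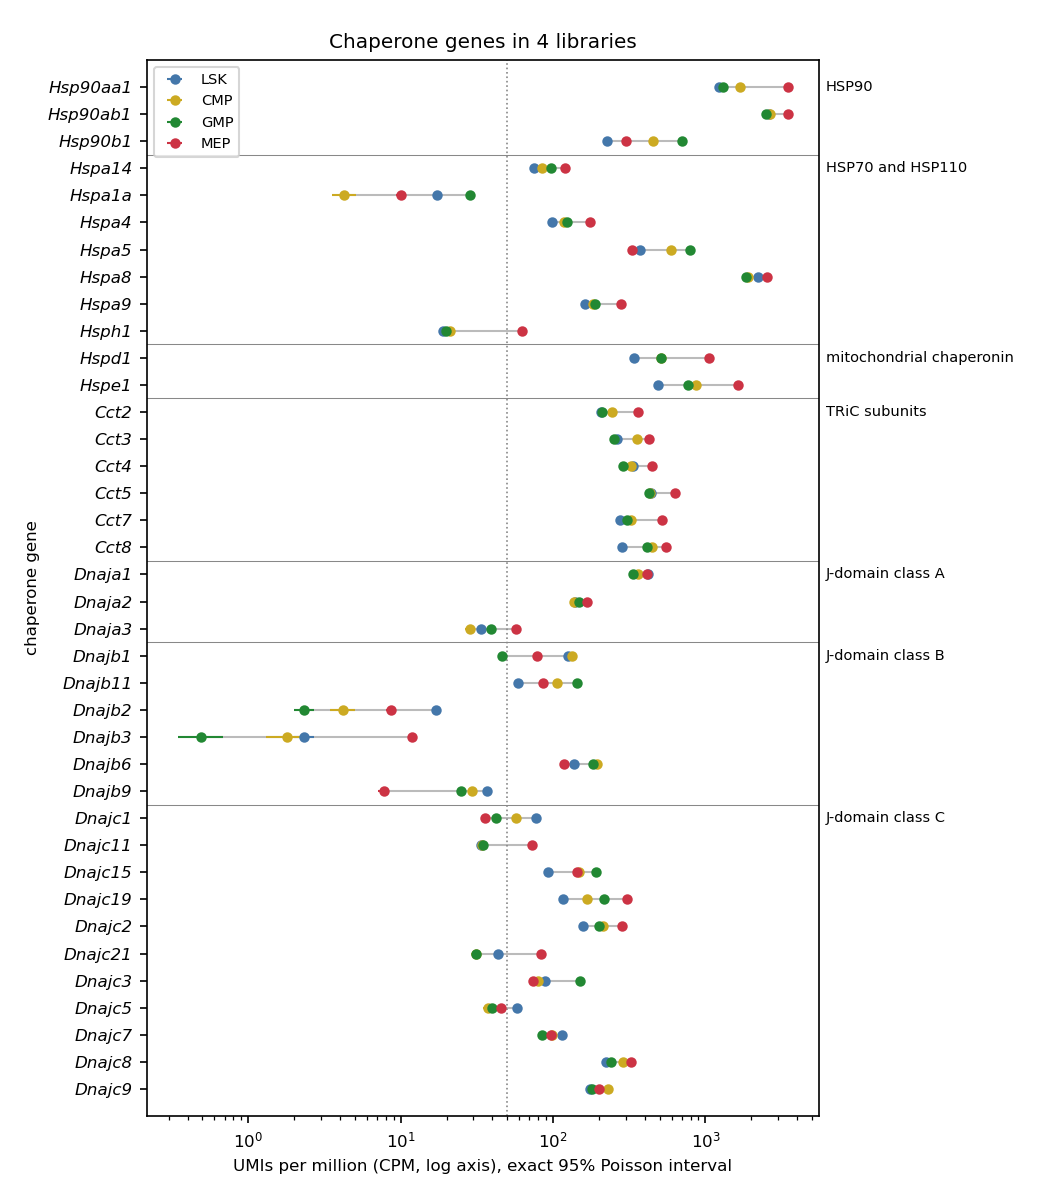
Levels of the 38 named chaperone genes in the 4 libraries, in CPM on a log axis, by family; points are library sums, bars exact 95% Poisson intervals, and the dotted line marks 50 CPM. Red MEP points lie to the right in most families, while Hspa5 (796 CPM in GMP) and Hsp90b1 (702 CPM in GMP) have the green GMP point farthest right.

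Among the cytosolic HSP90 genes, the stress-inducible isoform moved more than the constitutive one. Hsp90aa1, the inducible isoform, had 1229 CPM for LSK, 1684 for CMP, 1309 for GMP and 3491 for MEP. MEP lay apart from the other libraries, at a log2 ratio of -1.51 for LSK over MEP (-1.52 to -1.50), -1.05 for CMP over MEP and -1.41 for GMP over MEP. Hsp90ab1, the constitutive isoform, had 2601, 2654, 2499 and 3479 CPM across the gates, a spread of 1.39-fold that passed no call.

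Hsph1 and Hspa4 of the HSP110 type and the cytosolic Hspa8 were highest in MEP as well. Hsph1, an exchange factor of HSP70 that heat shock induces, had 19.0 CPM for LSK, 21.1 for CMP, 19.9 for GMP and 62.1 for MEP. It was low and level in the first 3 libraries and 3.27-fold higher in MEP than in LSK (log2 -1.71, -1.79 to -1.62). Thinned to 2000 UMIs per cell, 11.2% of MEP cells held an Hsph1 UMI against 3.54 to 3.89% in the other libraries, and unthinned the shares were 47.9% against 11.7 to 15.8%. Thinning left out 36 CMP cells.

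Hspa4, a second HSP110 family gene, differed less, with 98.5, 117, 124 and 176 CPM across the gates. Hspa8, the constitutive cytosolic HSP70, had 2210.2, 1905, 1837 and 2539 CPM, within 1.38-fold. Hspa14, which encodes an HSP70 relative on the ribosome, had 74.7, 84.3, 96.9 and 120 CPM in the same order. Its identifier in the matrices is Gm45902 in GENCODE M21, a model that overlaps Hspa14 on the same strand, so its counts are uncertain.

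The mitochondrial chaperonin pair was among the genes farthest apart between LSK and MEP: of the 34 genes Hspe1 had the largest ratio, followed by Hsph1 and Hspd1. Hspd1 encodes HSP60, the barrel that folds imported proteins in the matrix, and Hspe1 encodes HSP10, its lid. Hspd1 had 342 CPM for LSK, 507 for CMP, 511 for GMP and 1061 for MEP. Hspe1 had 485, 861, 772 and 1627 CPM in that order. LSK was lowest and MEP highest for both, with CMP and GMP between them.

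For LSK over MEP the log2 ratio was -1.63 for Hspd1 (-1.65 to -1.61) and -1.75 for Hspe1 (-1.76 to -1.73). The genes lie head to head on chromosome 1 of GRCm38 in GENCODE M21, Hspd1 at 55077835 to 55088243 on the minus strand and Hspe1 at 55088132 to 55091307 on the plus strand. They overlap at their first bases. Shown are the 250 bases before the RefSeq start of Hspe1 (chr1:55087898-55088147, plus strand, GRCm38.p6). Of the 300-base windows around the starts, 285 bases coincide for 1 of the 2 RefSeq starts of Hspd1 and 4 for the other. Capitals mark heat shock element blocks, GAA and TTC, the letters that heat shock factor binds.
Hspe1: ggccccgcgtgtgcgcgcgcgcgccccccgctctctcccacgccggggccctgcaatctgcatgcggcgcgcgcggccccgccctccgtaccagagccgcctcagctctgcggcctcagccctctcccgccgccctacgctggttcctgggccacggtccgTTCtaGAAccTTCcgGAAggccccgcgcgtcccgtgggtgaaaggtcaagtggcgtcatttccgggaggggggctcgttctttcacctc

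The motif searched, on both strands, was 3 blocks, GAA, TTC and GAA, each 2 bases from the next. It was found in 0.662% of the 27025 genes with a promoter entry in the RefSeq table, and in 4 of the 66 chaperone genes with one: Hspd1, Hspe1, Hsph1 and Dnajb6. Hspd1 and Hspe1 share 1 site, so these 4 genes hold 3 sites. Its parts were searched too: GAANNTTC, with N any base, was in 16 of the 66 (24.2%, against 9.04% of all genes), among them Hspa1a and Dnaja1, which were not called higher in MEP, and TTCNNGAA in 7 (10.6% against 9.60%). In the Hspe1 window the 3 blocks occur in 2 overlapping matches on opposite strands, from -89 to -77 and from -84 to -72 relative to the start. In Hsph1 the match lies past the start, from 37 to 49. Hspd1, Hspe1 and Hsph1 were called higher in MEP than in LSK and GMP, and Dnajb6 was not. The motifs were chosen with the levels known, and a match is a description of letters, not of binding. Hsp90aa1, Hsp90ab1, Hspa8, Hspa9, Cct4, Dnajc2, Dnajc5 and Dnajc11 have no entry.

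The other genes on a list of 7 mitochondrial members also had their highest level in MEP, with 1 exception. Hspa9, the mitochondrial HSP70, had 162, 184, 188 and 279.9 CPM across the gates. Dnajc19, the J-protein of the import motor at the inner membrane, had 117, 168, 216 and 305 CPM, a log2 ratio of -1.38 for LSK over MEP (-1.41 to -1.34). Its levels were ordered from LSK over CMP and GMP up to MEP.

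Dnajc11, a J-protein of the membrane complex that shapes cristae, had 33.8, 34.2, 34.6 and 72.9 CPM across the gates. Dnaja3, a J-protein of the matrix, had 33.9, 28.6, 39.2 and 57.3 CPM. Dnajc11 was thus flat outside MEP, while Dnaja3 ranged there from 28.6 CPM in CMP to 39.2 in GMP. Dnaja3 passed the call for CMP over MEP only just, at a log2 ratio of -1.001 (-1.11 to -0.89). Dnajc15, a relative of Dnajc19, was the exception, with 93.0, 148, 192 and 143 CPM and its peak in GMP (log2 -1.04 for LSK over GMP). Of the 7 genes on the mitochondrial list, 4 were called higher in MEP than in LSK, 3 than in CMP and 3 than in GMP. Lower calls numbered 0. Of all genes 13.5%, 10.5% and 12.1% were higher in MEP.

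All 6 subunits of TRiC with 50 CPM or more were highest in MEP. By CPM none reached 2-fold between any libraries, while for LSK over MEP 5 of 6 did under median-of-ratios scaling and 4 of 6 under TMM. Median-of-ratios scaling also put 1 of 6 past 2-fold for LSK over CMP and 1 of 6 for LSK over GMP. Those factors shift all genes alike, and the share of all genes was not computed under them. Cct8 had 283 CPM for LSK, 446 for CMP, 412 for GMP and 549 for MEP. Cct7 had 276, 325, 307 and 522 CPM, and Cct5 had 439.96, 432, 426 and 635 CPM. Outside MEP the subunits thus differed, with Cct5 level and Cct8 lowest in LSK.

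Cct2, Cct3 and Cct4 lay between 207 and 354 CPM in LSK, CMP and GMP and between 358 and 449 CPM in MEP. Over the 6 subunits the median log2 ratio was -0.75 for LSK over MEP, -0.51 for CMP over MEP and -0.70 for GMP over MEP, against -0.18, -0.18 and -0.21 for all genes tested. Tcp1, a subunit whose symbol falls outside the naming stem, had 227, 284, 272 and 437 CPM. The testis subunit gene Cct6b stayed under 1 CPM.

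Genes of the partners of these machines were mostly higher in MEP than in LSK as well. Of 27 co-chaperone and partner genes, 20 were tested between LSK and MEP, 6 were higher in MEP and 0 in LSK (13.5% and 16.4% of all genes), with a median log2 ratio of -0.65 against -0.18 for all genes tested. Bag2, a co-chaperone of HSP70, had 27.5, 31.1, 24.7 and 91.0 CPM across the gates, and Fkbp4, an HSP90 co-chaperone, had 241, 297, 319 and 491 CPM. Pfdn5, a subunit of prefoldin, which delivers clients to TRiC, went the other way with 542, 499, 466 and 322 CPM. The gene of heat shock factor itself, Hsf1, had 12.1 to 18.5 CPM and was level in LSK and MEP.

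**Figure D2:**
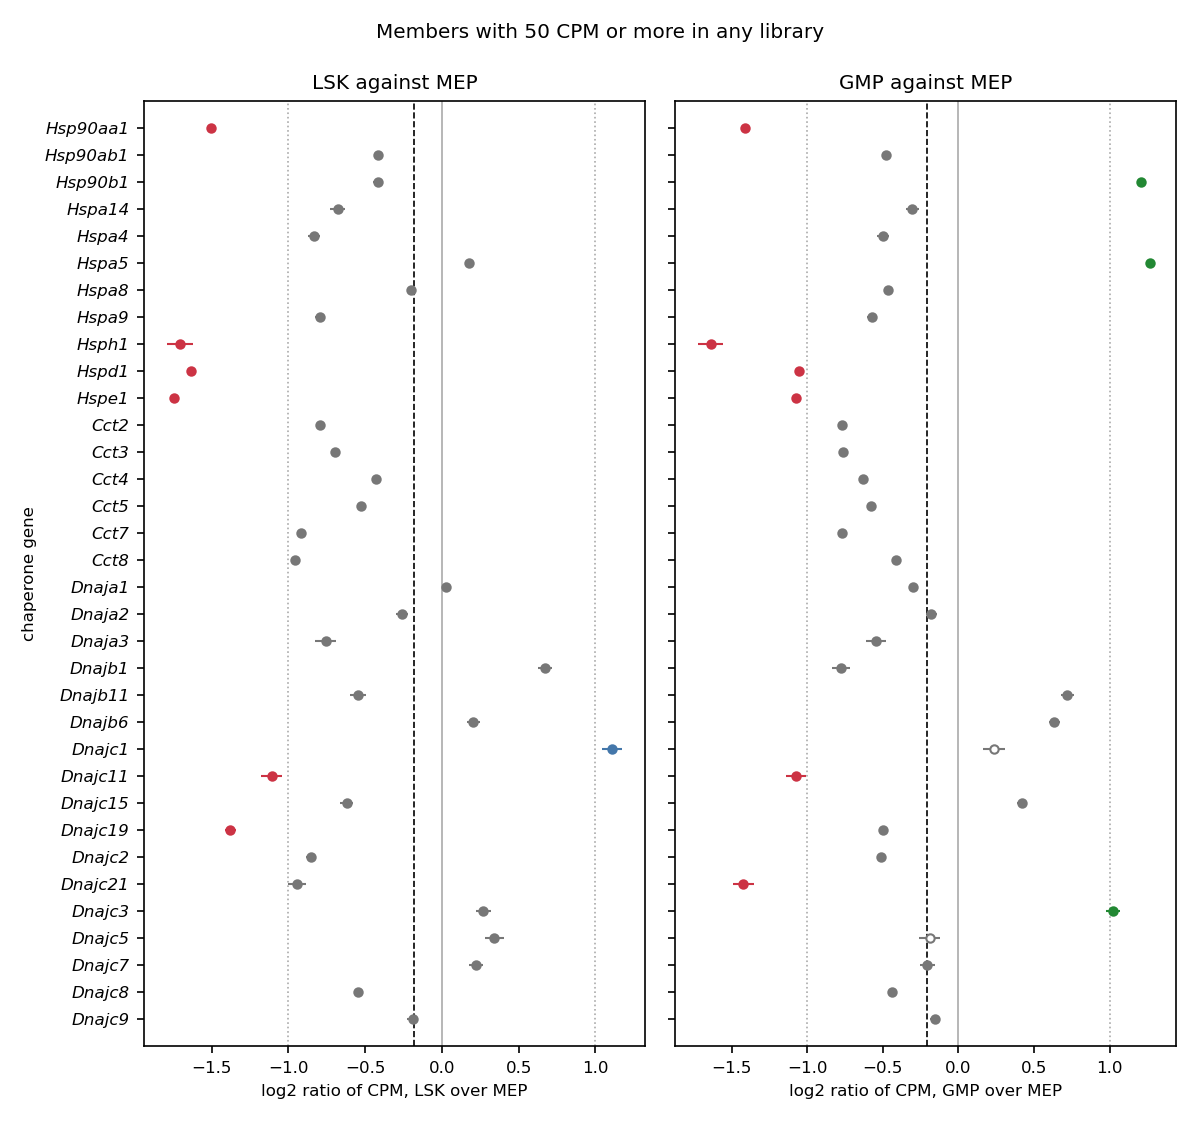
Log2 ratios of CPM for the 34 chaperone genes with 50 CPM or more, LSK over MEP (left) and GMP over MEP (right), with exact 95% intervals; red marks genes called higher in MEP, blue in LSK and green in GMP, open points were not tested, dotted lines mark 2-fold and the dashed line is the median of all genes tested (-0.18 and -0.21). The points lie mostly left of the dashed line, and on the right Hspa5, Hsp90b1 and Dnajc3 stand beyond 1.

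Of the endoplasmic reticulum members, Hspa5, Hsp90b1, Dnajb11 and Dnajc3 were highest in GMP. Hspa13 and Dnajc10, under 50 CPM and named after their values were seen, also peaked there, at 20.4 and 39.8 CPM. Hspa5 encodes BiP, the HSP70 of the endoplasmic reticulum. It had 373 CPM for LSK, 597 for CMP, 796 for GMP and 330.5 for MEP. Hsp90b1 encodes GRP94, the HSP90 of the same compartment, and had 227, 455, 702 and 303 CPM. Both were highest in GMP and second in CMP.

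The log2 ratio of GMP over MEP was 1.27 for Hspa5 (1.25 to 1.29) and 1.21 for Hsp90b1 (1.19 to 1.23). For LSK over GMP it was -1.09 and -1.63. Hsp90b1 was also the gene called between LSK and CMP, at -1.01 (-1.04 to -0.97), a call that ended when doublets were removed and under thinning (-0.94). Dnajb11, a J-protein that brings substrates to BiP, had 59.3, 106, 143 and 86.5 CPM across the gates, and was called only for LSK against GMP (log2 -1.27, -1.32 to -1.22). Dnajc3, a co-chaperone that also restrains the kinase PERK, had 89.1, 79.8, 150.3 and 73.9 CPM. Its log2 ratio of GMP over MEP was 1.02 (0.98 to 1.07), so that the interval reaches below 2-fold.

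Not all genes of the compartment peaked in GMP. Dnajc1, a J-protein of its membrane, had 77.1, 57.3, 42.1 and 35.7 CPM across the gates, and its call for LSK over MEP (log2 1.11) ended under median-of-ratios (0.59) and TMM scaling (0.67). Dnajb9, a J-protein that hands BiP to the stress sensor IRE1, had 36.8, 29.6, 24.7 and 7.75 CPM, lowest in MEP by 4.75-fold against LSK. In cells without a UMI of Fos, Fosb or Egr1 it had 18.7, 21.5, 26.9 and 6.53 CPM. There GMP was highest and MEP still lowest. Of the 8 endoplasmic reticulum members, 4 were tested between GMP and MEP, and 3 of them were higher in GMP (12.2% of all genes). Between LSK and GMP 3 of 5 tested were higher in GMP (7.49% of all genes), and between LSK and MEP 1 of 5 was higher in LSK (16.4%).

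Genes of the compartment that are no chaperone members by symbol were also mostly higher in GMP than in MEP. Of 16 genes of the endoplasmic reticulum stress list, 12 were tested between GMP and MEP, 9 were higher in GMP and 0 in MEP (12.2% and 12.1% of all genes), with a median log2 ratio of 1.28 against -0.21 for all genes tested. Calr, the lectin chaperone calreticulin, had 582, 1298, 1803 and 593 CPM across the gates. Sdf2l1, a regulator of the BiP cycle, had 58.8, 272, 561 and 92.0 CPM. The stress factor Ddit3, by contrast, was lowest in GMP, with 30.5, 34.0, 12.0 and 26.5 CPM.

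The 3 members called higher in GMP than in MEP are shown by the 250 bases before their RefSeq starts (GRCm38.p6). They were Hspa5 at chr2:34771840-34772089 on the plus strand, Hsp90b1 at chr10:86705445-86705694 on the minus strand and Dnajc3 at chr14:118937682-118937931 on the plus strand. Capitals mark the fixed letters of the endoplasmic reticulum stress element, CCAAT and CCACG with 9 bases between them, searched on both strands.
Hspa5: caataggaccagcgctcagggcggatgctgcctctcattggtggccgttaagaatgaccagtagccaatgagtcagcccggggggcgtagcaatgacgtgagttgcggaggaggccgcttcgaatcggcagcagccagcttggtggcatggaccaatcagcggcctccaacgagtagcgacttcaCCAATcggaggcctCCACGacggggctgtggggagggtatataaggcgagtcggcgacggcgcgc
Hsp90b1: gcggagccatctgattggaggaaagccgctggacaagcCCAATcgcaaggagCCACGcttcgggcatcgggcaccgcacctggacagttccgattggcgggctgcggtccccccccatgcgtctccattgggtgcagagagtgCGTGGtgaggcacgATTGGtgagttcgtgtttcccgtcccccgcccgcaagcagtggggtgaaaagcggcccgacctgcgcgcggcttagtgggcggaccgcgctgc
Dnajc3: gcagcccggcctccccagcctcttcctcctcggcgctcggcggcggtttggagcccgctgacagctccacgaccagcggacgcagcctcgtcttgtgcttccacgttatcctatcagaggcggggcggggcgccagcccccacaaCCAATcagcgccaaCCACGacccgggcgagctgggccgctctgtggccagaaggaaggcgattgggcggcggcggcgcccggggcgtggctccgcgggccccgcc

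This element was in 0.137% of the 27025 genes with a promoter entry, and in 3 of the 66 chaperone genes with one, which are the 3 printed. Hspa5 held it from -65 to -47, Dnajc3 from -105 to -87, and Hsp90b1 in both orientations, from -212 to -194 and from -107 to -89. Dnajb11, Dnajc1 and Dnajb9 have entries without these letters in the window. This element too was chosen with the levels known, so its presence in these 3 genes is no test. A match describes letters, not binding, and the part of the element in the levels was not tested.

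Dnajb1, the cytosolic class B J-protein that heat shock induces, followed neither pattern. It had 126 CPM for LSK, 133 for CMP, 46.0 for GMP and 78.9 for MEP. LSK and CMP were high and GMP low, at a log2 ratio of 1.45 for LSK over GMP (1.39 to 1.51) and 1.53 for CMP over GMP (1.46 to 1.60). Median-of-ratios scaling put the first at 0.91, below the call. Immediate early genes were also highest in LSK and CMP.

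In cells without a UMI of Fos, Fosb or Egr1, Dnajb1 had 69.3 CPM for LSK, 61.5 for CMP, 38.2 for GMP and 78.1 for MEP. There it was highest in MEP, and the log2 ratios over GMP were 0.86 for LSK and 0.69 for CMP, below the call. Such cells were 5.27% of cells for LSK, 15.03% for CMP, 45.1% for GMP and 54.3% for MEP, so that in LSK they are few and shallower (median 4779 UMIs). The part of the immediate early response in the Dnajb1 levels was not tested. In those LSK cells Hspa5 had 245 CPM in place of 373, Hsp90aa1 914 in place of 1229 and Hspe1 454 in place of 485.

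**Figure D3:**
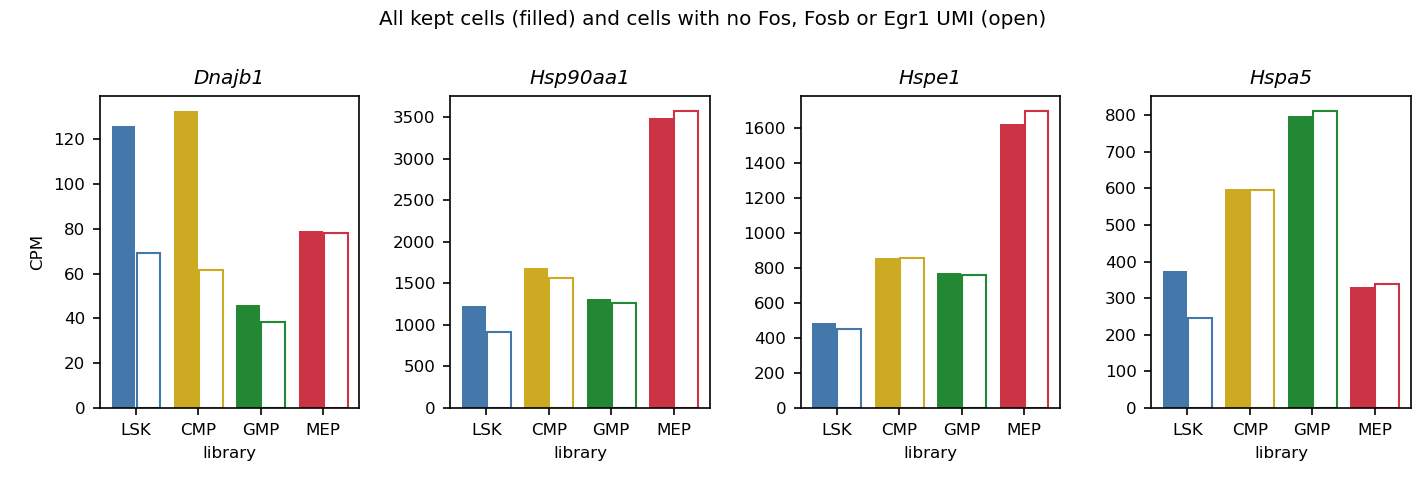
CPM of Dnajb1, Hsp90aa1, Hspe1 and Hspa5 in each library over all kept cells (filled bars) and over cells with no UMI of Fos, Fosb or Egr1 (open bars). Dnajb1 drops from 126 to 69.3 CPM in LSK and from 133 to 61.5 in CMP and hardly moves in MEP, while MEP stays highest for Hsp90aa1 and Hspe1 and GMP for Hspa5.

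The other J-domain genes of the cytosol and nucleus differed less, with a few exceptions. Dnaja1 and Dnaja2, the general class A partners of HSP70, stayed within 1.25-fold and 1.22-fold across libraries, at 336 to 421 and 137 to 167 CPM. Dnajb6, which holds aggregation-prone proteins, had 136, 195, 184 and 118 CPM across the gates. Dnajc7, a co-chaperone that binds HSP70 and HSP90, had 84.6 to 114 CPM. Dnajc8, a splicing-associated J-protein, had 222 to 324 CPM.

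J-proteins of ribosome function were highest in MEP. Dnajc2, the ribosome-bound partner of Hspa14, had 157, 211, 199.7 and 284 CPM across the gates. Dnajc21, needed for maturation of the large ribosomal subunit, had 43.6, 31.2, 31.2 and 83.9 CPM. It was called higher in MEP than in CMP and GMP, at a log2 ratio of -1.42 for CMP over MEP (-1.53 to -1.32) and -1.43 for GMP over MEP.

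Dnajc9, a chaperone of histones H3 and H4, differed little between libraries (175, 228, 179 and 199.9 CPM) but widely within LSK, as described with the cell classes. Dnajc5, which acts at secretory vesicles, had 57.8, 37.1, 40.0 and 45.6 CPM, with LSK highest by CPM but not under the other scalings. Below 50 CPM, Dnajb3 had 2.33, 1.78, 0.491 and 11.9 CPM across the gates, 24.2-fold between MEP and GMP, where it had 36 UMIs. It overlaps Gm20528 on its own strand and Ugt1a genes on the other, so its counts are uncertain. Dnajb2 had 17.0, 4.20, 2.33 and 8.70 CPM and was highest in LSK.

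Hspa1a, the classical heat shock HSP70, was rare and uneven. It had 17.3 CPM for LSK, 4.27 for CMP, 28.6 for GMP and 10.1 for MEP. Only 3.35% of LSK cells held a UMI (364 of 10870), against 2.29% in CMP, 11.8% in GMP and 7.48% in MEP. Thinned to 2000 UMIs the shares were 1.53, 0.789, 4.37 and 1.73%. Free RNA could be read for LSK alone, whose file holds barcodes far below the cell limit. In 426182 barcodes of 100 UMIs or fewer, Hspa1a had 27.1 CPM (18.6 to 38.3, 32 UMIs), not below the 17.3 CPM of the cells, so LSK cells with a single UMI cannot be told from background.

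In LSK the 1% of cells with the most Hspa1a held 74.5% of its UMIs, with up to 42 in a cell, against 26.8% in GMP, with up to 18. Cells with 5 or more Hspa1a UMIs, a limit set after the values were seen, numbered 83 in LSK, 96 in GMP, 18 in MEP and 1 in CMP. The 83 LSK cells had 192 CPM of Dnajb1 (166 to 222) against 124 in cells without an Hspa1a UMI. They had 43.1 CPM of Hsph1 (31.2 to 58.0) against 18.5, and 2008 CPM of Hsp90aa1 against 1203.

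Hspa8 in these cells was 3536 against 2169 CPM, while Fos was lower, 1335 against 1970.3 CPM. The cells were also deeper, with a median of 11247 against 5939 UMIs. Fos went the other way in GMP and MEP, with 262 against 201 CPM in the 96 GMP cells and 384 against 101.5 CPM in the 18 MEP cells. The 96 GMP cells had 32.2 CPM of Hsph1 (22.4 to 44.8) against 18.9 and 63.5 CPM of Dnajb1 (49.4 to 80.3) against 43.8. Hspa1b, whose sequence is nearly the same, had 0.745 CPM in LSK and at most 3.46 in any library, and reads of this pair can be split by the counting, so both are uncertain.

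The remaining genes were few or silent. No gene filed with the small heat shock proteins reached 50 CPM in a library, and their sum was 42.2 CPM for LSK, 31.9 for CMP, 20.9 for GMP and 28.0 for MEP. Hspb11, which encodes an intraflagellar transport protein, made up most of it, with 35.4, 26.5, 14.1 and 15.9 CPM, and Hspb1 was under 0.5 CPM. Hspa12b, named after its values were seen, had 4.68 CPM in LSK and at most 0.446 elsewhere. Of the 81 genes, 9 had under 3 UMIs in every library and 5 had none, where 3 UMIs correspond to 0.0374 to 0.111 CPM.

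The cells of each library were then clustered on their own without the chaperone genes, and classes were named from markers. MEP held 4895 erythroid-like and 212 megakaryocyte-like cells, with a median of 12958 and 4694 UMIs. Chaperone genes took 1.95% of the UMIs of the former and 1.38% of the latter. Of 34 chaperone genes tested, 3 were called higher in erythroid-like and 2 in megakaryocyte-like cells, where 6.19% and 11% of all genes were.

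Hspe1 had 1643 CPM in erythroid-like and 758 in megakaryocyte-like MEP cells (log2 1.12, 1.02 to 1.22). Hspd1 had 1064 and 526 CPM (1.02, 0.90 to 1.14), and Hsph1 had 62.9 and 27.4 CPM (1.20, 0.68 to 1.77). Hsp90aa1 had 3509 and 1900.1 CPM (0.88, 0.82 to 0.95), just short of the call. The median over the 34 genes was 0.36, against 0.08 for all genes tested.

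In the other direction, Dnajc1 had 35.2 CPM in erythroid-like and 90.3 in megakaryocyte-like MEP cells (log2 -1.36, -1.65 to -1.06). Hspb11, named here after its values were seen, had 15.1 and 50.2 CPM (-1.73, -2.12 to -1.31). The endoplasmic reticulum genes Hspa5 (328 and 449 CPM) and Hsp90b1 (299.6 and 389 CPM) were also above in megakaryocyte-like cells, without passing the call.

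In CMP, 121 cells were megakaryocyte-like, and the genes called there included 2 of the endoplasmic reticulum, Dnajc3 and Dnajc1. Against the 1172 monocyte-like CMP cells, 3 of 31 chaperone genes were called higher and 0 lower, where 9.87% and 6.23% of all genes were. Dnajc3 had 159 and 73.0 CPM (log2 1.12, 0.86 to 1.38), Dnajc1 had 108 and 49.2 CPM (1.13, 0.81 to 1.45) and Dnajc21 had 62.3 and 21.7 CPM (1.52, 1.07 to 1.95). Hsp90b1 had 696 and 468 CPM, and Hspa5 785 and 600.4 CPM.

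Dnajb1 split the CMP classes. It had 263 CPM in the 917 basophil/mast-like cells and 79.3 in the monocyte-like cells (log2 1.73, 1.60 to 1.86), the only one of 29 chaperone genes called, with 0 in the other direction (4.89% and 2.2% of all genes). One of the 2 basophil/mast-like clusters carried the difference, with 418 CPM in 615 cells against 119 CPM in the other 302 cells, which alone would not pass the call. The immediate early genes summed to 7027 CPM in the basophil/mast-like class and 2507 CPM in the monocyte-like class. In the basophil/mast-like clusters of 615 and 302 cells they summed to 9328 and 4893 CPM. Clusters of either class had Egr1, Btg2, Cxcl2 or Ccl4 among their leading genes. The part of the immediate early genes in the Dnajb1 difference was not tested. With coarser clusters 4 chaperone genes were called higher in basophil/mast-like cells. The share of all genes was not computed for those clusters, so this count has no background.

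In LSK, Hsp90aa1 and Hspd1 were compared over 3 named classes. The 16 dendritic-like cells were left out. They had 888 CPM of Hsp90aa1 (743 to 1054) and 129 CPM of Hspd1 (77.6 to 201). The 2827 HSC/multipotent-like cells had 850.4 CPM of Hsp90aa1, against 1338 in 2385 lymphoid-primed-like and 1467 in 612 megakaryocyte-like cells. Hspd1 had 246, 340.0 and 427 CPM in that order. For Hsp90aa1 and Hspd1 the HSC/multipotent-like cells lay at log2 -0.65 and -0.47 against lymphoid-primed-like cells. Against megakaryocyte-like cells they lay at -0.79 and -0.79. Of these 3 class sums, that of the HSC/multipotent-like cells was thus lowest for both genes. For Hspd1 this did not hold cluster by cluster, since 2 of the 4 lymphoid-primed-like clusters had 256 and 222 CPM, like the 256 and 224 CPM of the HSC/multipotent-like clusters, and the others had 479 and 374 CPM.

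Dnajc9 was the only chaperone gene called in either LSK comparison. It had 75.4 CPM in HSC/multipotent-like, 235 in lymphoid-primed-like and 230.1 in megakaryocyte-like cells, at log2 -1.64 (-1.74 to -1.54) and -1.61 (-1.74 to -1.48). Thus 1 of 30 genes was called higher in lymphoid-primed-like cells and 0 in HSC/multipotent-like cells (6.44% and 3.17% of all genes), and 1 of 31 and 0 against megakaryocyte-like cells (4.7% and 2.88%). The proliferation gene Mki67 had 11.2, 257 and 42.6 CPM in these classes, and 3 of the 4 lymphoid-primed-like clusters had division or histone genes among their leading genes. The part of cycling in the Dnajc9 level was not tested. With coarser clusters (resolution 0.5) no chaperone gene was called between HSC/multipotent-like and lymphoid-primed-like cells, and the comparison with megakaryocyte-like cells could not be made.

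**Figure D4:**
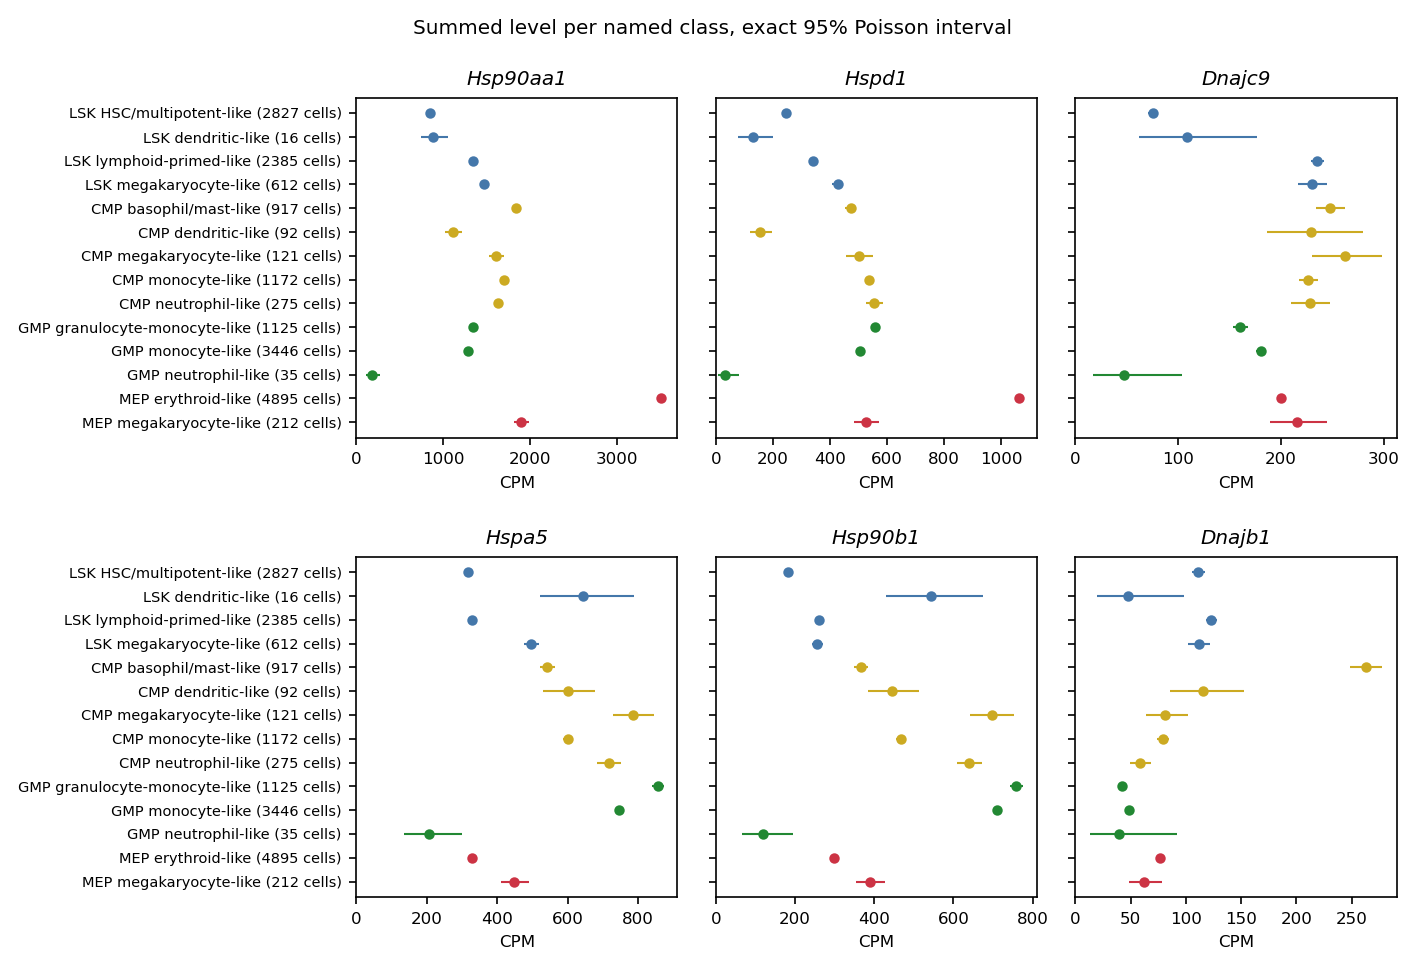
CPM of 6 chaperone genes in each named class, coloured by library, with exact 95% Poisson intervals and cell numbers in the row names. MEP erythroid-like cells stand apart for Hsp90aa1 (3509 CPM) and Hspd1 (1064 CPM), HSC/multipotent-like LSK cells are low for Dnajc9 (75.4 CPM) and CMP basophil/mast-like cells are high for Dnajb1 (263 CPM).

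GMP classes of progenitor type differed little. Between 1125 granulocyte-monocyte-like and 3446 monocyte-like cells, 0 of 27 chaperone genes were called in either direction, where 0.609% and 1.14% of all genes were. A set of 35 neutrophil-like GMP cells, with markers of late granules such as Ltf and Ngp, had low chaperone levels. The chaperone genes took 0.289% of their UMIs, against 1.36% in monocyte-like and 1.39% in granulocyte-monocyte-like cells.

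Of 29 chaperone genes tested against monocyte-like cells, 25 were called lower in these neutrophil-like cells and 1 higher, but 58% of all genes were lower and 10.9% higher there too. Hspd1 had 31.6 CPM against 504, from 4 UMIs, and Hsp90ab1 had 269 against 2497 CPM (log2 -3.22, -3.75 to -2.73). The median log2 ratio was -1.93 for the chaperone genes and -1.20 for all genes tested. The cells had a median of 3398 UMIs against 9303. The 275 neutrophil-like cells of CMP, by contrast, gave 1.41% of their UMIs to chaperone genes.

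Dendritic-like cells of CMP, 92 in number, had the lowest CMP class levels of Hspd1 and of both cytosolic HSP90 genes. They had 155 CPM of Hspd1, against 472 to 556 in the other CMP classes, and 1071 CPM of Hsp90ab1, against 2143 to 2691. Hsp90aa1 was 1115 CPM there, against 1613 to 1832. These values have no contrast of their own and are given as levels.

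Across the 47 clusters of 100 or more cells, some genes ran closely together. The log2 levels of Hspd1 and Hspe1 had a Pearson r of 0.99 over 11 LSK clusters, 0.97 over 11 in CMP, 0.89 over 12 in GMP and 0.98 over 13 in MEP (Spearman 0.96, 0.91, 0.88 and 0.92). The summed levels of the 8 endoplasmic reticulum chaperone genes and of the endoplasmic reticulum stress list had r of 0.80, 0.88, 0.68 and 0.94 in that order (Spearman 0.76, 0.82, 0.74 and 0.88). Hsp90aa1 and Hspd1 had r of 0.92, 0.55, 0.80 and 0.95, and Cct5 and Cct8 0.85, 0.69, 0.79 and 0.94. For Hspa5 and Hsp90b1 it was 0.40, 0.90, 0.70 and 0.86. For Hsp90aa1 and Mki67 it was 0.54, 0.26, -0.24 and 0.41. Clusters of a library share that library, and the points are no replicates.

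Dnajb1 and the summed immediate early genes had r of 0.90, 0.96, 0.93 and 0.42 in LSK, CMP, GMP and MEP (Spearman 0.81, 0.96, 0.74 and 0.06). The relation was weak in MEP, where the cluster with the highest Dnajb1 (144 CPM) also had the highest immediate early sum (4431 CPM). The highest Dnajb1 level was 418 CPM in a CMP cluster of 615 cells.

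**Figure D5:**
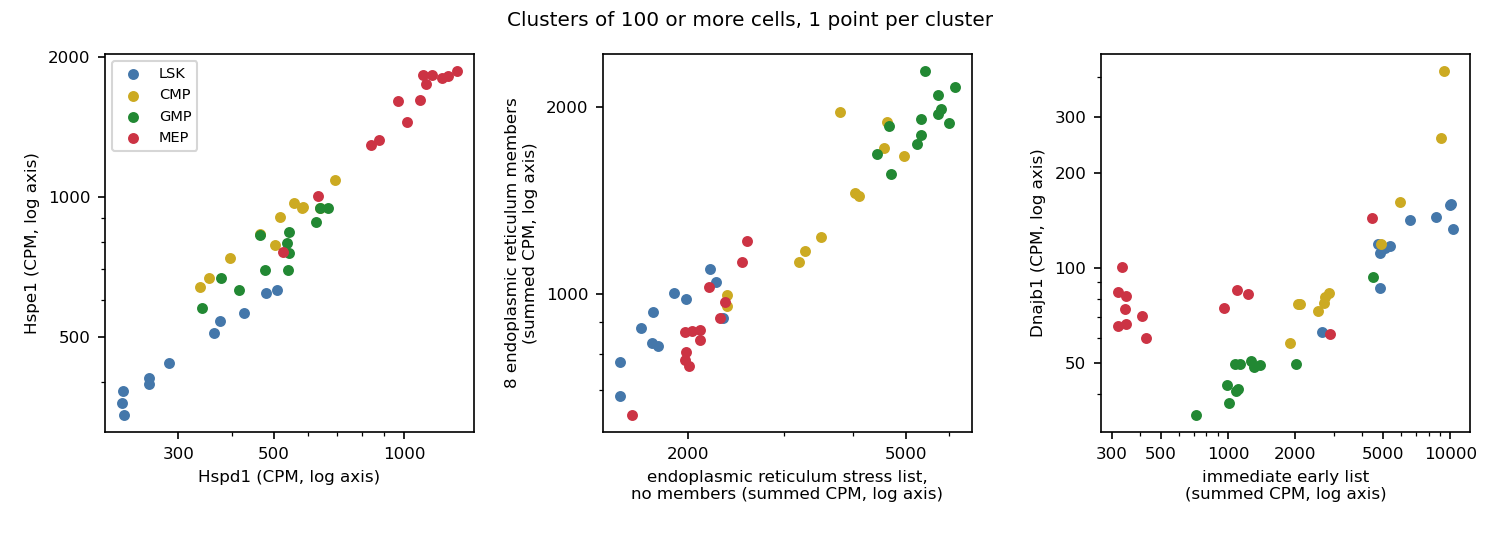
Levels per cluster on log axes in CPM, 1 point per cluster of 100 or more cells, coloured by library: Hspd1 against Hspe1, the summed endoplasmic reticulum members against the stress list, and Dnajb1 against the summed immediate early genes. The first panel forms a narrow band (r of 0.89 to 0.99 within libraries), the second a wider one (0.68 to 0.94), and in the third the MEP points follow the line least (0.42).

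Cells with and without a UMI of the division gene Mki67 were close in chaperone levels within each library. Cells with an Mki67 UMI made up 24.3% of cells for LSK, 35.7% for CMP, 52.6% for GMP and 72.7% for MEP, and were deeper, with a median of 9878 against 5444 UMIs in LSK and 14787 against 6683 in MEP. In every library 0 chaperone genes passed the call in either direction. Of all genes tested, 3.73% were higher and 0.229% lower in LSK cells with Mki67, 2.38% and 0.11% in CMP, 0.696% and 0.271% in GMP and 1.46% and 1.49% in MEP. Among chaperone genes tested, 27 of 30 in LSK, 28 of 29 in CMP, 27 of 27 in GMP and 31 of 32 in MEP differed by at most 0.3 log2 units between the 2 sets of cells.

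Among the genes tested at 50 CPM, the one farthest out was Dnajc9 in LSK, with 239 CPM in cells with Mki67 and 141 in those without (log2 0.77, 0.72 to 0.82). In CMP it differed by 0.16 and in MEP by -0.06. In MEP, Hsph1 had 64.8 and 48.9 CPM (0.40, 0.29 to 0.52) and Hspd1 had 1090.2 and 914 CPM (0.25, 0.23 to 0.28). Dnajb9, below 50 CPM, was lower in cells with Mki67, at 6.58 and 13.6 CPM in MEP (-1.05, -1.30 to -0.79) and 27.5 and 41.8 CPM in LSK (-0.60, -0.73 to -0.48). The gap in Hsp90aa1 between MEP and LSK was seen on either side of the split, at 3564 and 1357 CPM with Mki67 and 3126 and 1160 CPM without. Thinned to 2000 UMIs, cells with an Mki67 UMI fell to 10.8% in LSK and 29.1% in MEP. Cells without one can therefore include dividing cells, and the part of cycling in this gap was not tested.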

How the data were processed

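Values were the deposited raw UMI counts per gene and barcode of 10x 3' libraries, not normalized, per the file contents. The submitters' processing notes list Seurat 2.3.0, Cell Ranger 2.0.0, CASAVA 1.8.2 and build mm10. How the submitters filtered cells is not given in the sources used here. LSK barcodes with 2110 or more UMIs were taken (10883, where the design text states 10882), and the CMP matrix held 3738 barcodes where it states 12185. Barcodes were dropped below 500 detected genes or above 10% mitochondrial UMIs. Counts were summed per library and divided by its total (CPM). Intervals are exact at 95% (Poisson, conditional binomial, Clopper-Pearson), and counts under 3 were set to 3 in ratios. Doublets, scored against simulated pairs (0.8% per 1000 cells), were removed only before clustering (2000 variable genes, 30 components, 15 neighbours, Leiden resolution 1, seed 0, scanpy 1.11.5).

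A cluster was named where 3 markers of a class had 10 CPM and 2-fold over all other cells. The class had to lead the next by 0.3 in mean log2 ratio and to have the most markers among the 10 leading genes. Unnamed clusters held 41.2% (LSK), 28.5% (CMP), 38.7% (GMP) and 14.4% (MEP) of cells, and a difference from other work may come from rebuilt names. Named were all genes of 50 CPM in any library and those 4-fold apart at 10 CPM. TMM factors came from edgeR 4.0.16. The members, lists, motifs and classes were chosen with earlier results of these data known. All 81 identifiers are in GENCODE M21; 37 overlap a gene on the other strand and 21 one on the same strand, and strand use in counting is not given in the sources used here. The calculation was tested on simulated data (200 of 27998 genes changed 3-fold, counting noise only), which recovered 100% with 0 false calls in each of the 6 library contrasts. The changed genes had 50 CPM or more over the 2 pooled libraries. The test thus could not show how calls near 2-fold or differences between replicate libraries behave.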

Additional observations from a re-analysis of the deposited data

Results flagged for a closer look

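Within a library the ratio of cells with an Mki67 UMI over cells without one pointed in opposite directions for 2 chaperone genes by 0.1 log2 units or more on both sides, with intervals that exclude 0. Whether these differences hold between libraries was not tested, since each gate was 1 library. For Hspa1a it was 1.30 in LSK (1.14 to 1.46) and -0.51 in MEP (-0.75 to -0.26), a difference of 1.81. In LSK, 83 cells held 885 of the 1304 Hspa1a UMIs, so that the ratio rests on few cells and its counting interval is too narrow. For Hspd1 it was 0.25 in MEP (0.23 to 0.28) and -0.13 in GMP (-0.16 to -0.10), a difference of 0.38.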

How the results depend on the processing

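Of 51 counts and medians over the chaperone genes, 153 values were computed under alternatives, and 110 stayed within 1.5 times the count or within the counting interval, while 43 moved. Of 203 alternative values for the 29 called gene ratios, 192 remained past 2-fold, 11 fell below it and 0 reversed. The 10 CPM minimum leaves a ratio as it is, so its 29 values could not fall. Among the 228 ratios of named genes, median-of-ratios scaling newly called 26 and TMM 19. The sign changed for 38 and 34 uncalled ratios. Shares of all genes called were computed for the main setting and the 10 CPM minimum only. Counts of chaperone genes under the other alternatives below thus have no background, and whether they exceed that of all genes cannot be read from them.

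Median-of-ratios scaling gave, for LSK against CMP, 6 genes higher in CMP. For LSK against GMP it gave 0 higher in LSK and 9 in GMP (median difference from all genes -0.054), for LSK against MEP 0 and 21 (-0.35), and for CMP against GMP 1 higher in GMP. TMM gave 3 for the first, 8 higher in GMP (-0.064) for the second, 0 and 18 (-0.36) for the third and 1 for the last.

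A minimum of 10 CPM gave 2 genes higher in LSK than in CMP (-0.27), 4 higher in LSK than in GMP (-0.39), 4 higher in LSK than in MEP (-0.58), 2 higher in GMP than in CMP (-0.043, from 0.07), 2 higher in CMP than in MEP and 8 higher in GMP than in MEP (-0.12).

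Thinning to 2000 UMIs per cell gave 0 higher in CMP than in LSK (-0.31), 2 higher in LSK than in GMP (-0.21), 1 higher in CMP than in MEP, a median difference of -0.26 for GMP over MEP and -0.023 for the Mki67 split of LSK (from 0.06). Without doublets 0 were higher in CMP than in LSK. Without cells holding Fos, Fosb or Egr1, 4 were higher in CMP than in LSK (-0.38), 12 in MEP than in LSK (-0.64) and 0 in CMP than in GMP, and LSK over GMP had -0.30.

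At Leiden resolution 0.5, 0 genes were higher in lymphoid-primed-like than in HSC/multipotent-like LSK cells (median difference 0.0084, from -0.25) and 4 were higher in basophil/mast-like than in monocyte-like CMP cells; 2 class contrasts were not run there, since a class was absent. The cause of these moves was not tested. No paired analysis was possible because each gate was 1 library and no test was run. Genes under 3 UMIs, 0.0374 to 0.111 CPM, are below what the depth can show.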
